A study of Mus musculus with 10 samples.

Results

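The genes described here were the Notch receptors Notch1, Notch2 and Notch3, the ligands Jag1, Jag2 and Dll1, and the Hes and Hey genes Hes1, Hey1, Hey2 and Heyl. They were taken by symbol from the table of raw counts and make up 10 of its 43346 genes. The rule used no values, but the members were chosen with earlier results of these data known. The libraries came from O9-1 cells, a mouse line of cranial neural crest origin that gives rise to facial mesenchyme and is tetraploid. RNA was compared between 4 wildtype samples, 3 Kat5 ko clones and 3 Ep400 ko clones, all grown without a treatment. Both ko groups were made by CRISPR/Cas9, Kat5 being the acetyltransferase and Ep400 the ATPase of the Tip60/Ep400 complex. Each clone grew from a single sorted cell, so that differences between clones of 1 genotype are part of the spread used in the tests. For the wildtype samples no such sorting and cloning is described, so that its effects cannot be told apart from those of the ko. The Kat5 clones were edited in all alleles with predicted frameshifts, as was Ep400/1, whereas Ep400/2 and Ep400/3 kept alleles with in-frame deletions in the ATP binding site. Libraries are called WT/1 to WT/4, Kat5/1 to Kat5/3 and Ep400/1 to Ep400/3.

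Notch receptors are single-pass membrane proteins that are activated by Delta and Jagged ligands on a neighboring cell. Ligand binding permits cleavage by Adam10 and then by the γ-secretase, and the released intracellular domain joins the DNA-binding protein Rbpj and a Mastermind coactivator at target genes. Hes and Hey genes are classic targets and encode bHLH repressors. In cranial neural crest and its derivatives the pathway is known for roles in mesenchyme, vascular smooth muscle and skeletal precursors.

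RefSeq promoter sequences on the GRCm38.p6 assembly were at hand for 7 members with 8 start sites, namely Notch1, Notch2, Notch3, Jag1, Jag2, Dll1 (2 starts) and Hey2. Those of Jag1 and Dll1 are shown because these ligands carried the largest called differences among well-expressed members, and that of Hey2 because it alone held an Rbpj core motif. All 3 genes lie on the minus strand, the sequences read 5′ to 3′ along the gene, and only bases before the RefSeq start and outside the gene span of GENCODE M21 are given. Capitals mark CACGCG, the class C site that Hes and Hey repressors can bind, and TGGGAA, the Rbpj core, on either strand.

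Jag1, chr2:137116645-137116770: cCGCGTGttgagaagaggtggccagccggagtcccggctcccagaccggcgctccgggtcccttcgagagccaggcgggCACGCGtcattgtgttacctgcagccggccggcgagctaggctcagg

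Dll1, chr17:15376933-15377182: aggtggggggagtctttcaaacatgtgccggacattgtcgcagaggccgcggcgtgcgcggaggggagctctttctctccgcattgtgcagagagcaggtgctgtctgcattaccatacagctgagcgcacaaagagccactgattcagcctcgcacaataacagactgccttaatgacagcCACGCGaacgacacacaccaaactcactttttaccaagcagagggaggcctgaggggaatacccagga

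Hey2, chr10:30842802-30843033: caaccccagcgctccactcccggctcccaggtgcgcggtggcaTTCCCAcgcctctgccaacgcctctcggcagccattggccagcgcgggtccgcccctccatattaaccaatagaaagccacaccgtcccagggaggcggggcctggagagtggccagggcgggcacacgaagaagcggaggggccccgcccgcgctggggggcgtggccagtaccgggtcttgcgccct

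The motifs were searched on both strands in the 250 bases before each start. CACGCG was present in 3 of the 8 member promoters, with 2 copies in Jag1 at −249 and −171 and single copies in Dll1 at −68 and in Notch2 at −42, compared with 7.62% of all 32851 promoters. TGGGAA was found in Hey2 at −207, where it was part of the longer GTGGGAA, and in 21.6% of all promoters. The N-box CACNAG occurred in the promoters of Notch1, Notch2 and Notch3 and in 36.7% of all promoters, and the class B E-box CACGTG in no member promoter and in 6.02% of all. These matches describe letters in a short window and do not show binding.

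The 10 libraries held between 30968945 and 48301792 counts each, and mitochondrial genes took 0.893% to 3.24% of them. Kat5 transcript levels were 16.4 to 23.2 CPM (counts scaled to a common library size) in Kat5 ko clones and 48.8 to 57.5 CPM in wildtype, and Ep400 levels were 54.7 to 61.4 CPM in Ep400 ko clones and 157 to 165 CPM in wildtype. Of 18 markers of cranial neural crest and mesenchyme, 16 averaged over 1 CPM in wildtype and Kat5 ko clones and 17 in Ep400 ko clones, Thy1 staying under 1 CPM in all groups and Msx2 in the first pair. Endothelial, epithelial and pluripotency markers summed to at most 1.68, 1.21 and 0.0578 CPM in any library. The 5 smooth muscle markers, Acta2 among them, summed to 53.6 to 78.2 CPM in wildtype, 63 to 758 CPM in Kat5 ko and 19 to 90.6 CPM in Ep400 ko libraries, with Cnn1 and Myh11 averaging under 1 CPM in each group, and the 6 markers of neurons and glia to 4.2 to 7.73, 3 to 11.7 and 13.3 to 27 CPM. Whether these 2 lists have a part in the results on Notch genes was not tested. In bulk RNA, fewer cells with a transcript and less transcript per cell cannot be told apart.

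Levels between genes were compared as CPM per kb of exons. In wildtype cells Notch2 was highest with 10.4 CPM per kb, followed by Notch1 with 4.3, and neither range overlapped that of the next gene. Jag1 (2.42), Notch3 (2.2), Hes1 (2.15) and Dll1 (1.89) came next, and each overlapped its neighbor in this order. Jag2 was at 0.111 CPM per kb and Hey1 at 0.0168, whereas Hey2 and Heyl had no count in any wildtype library. In Ep400 ko clones Dll1 averaged 11.1 CPM per kb next to 11.3 for Notch2, with overlapping ranges.

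**Figure D1:**
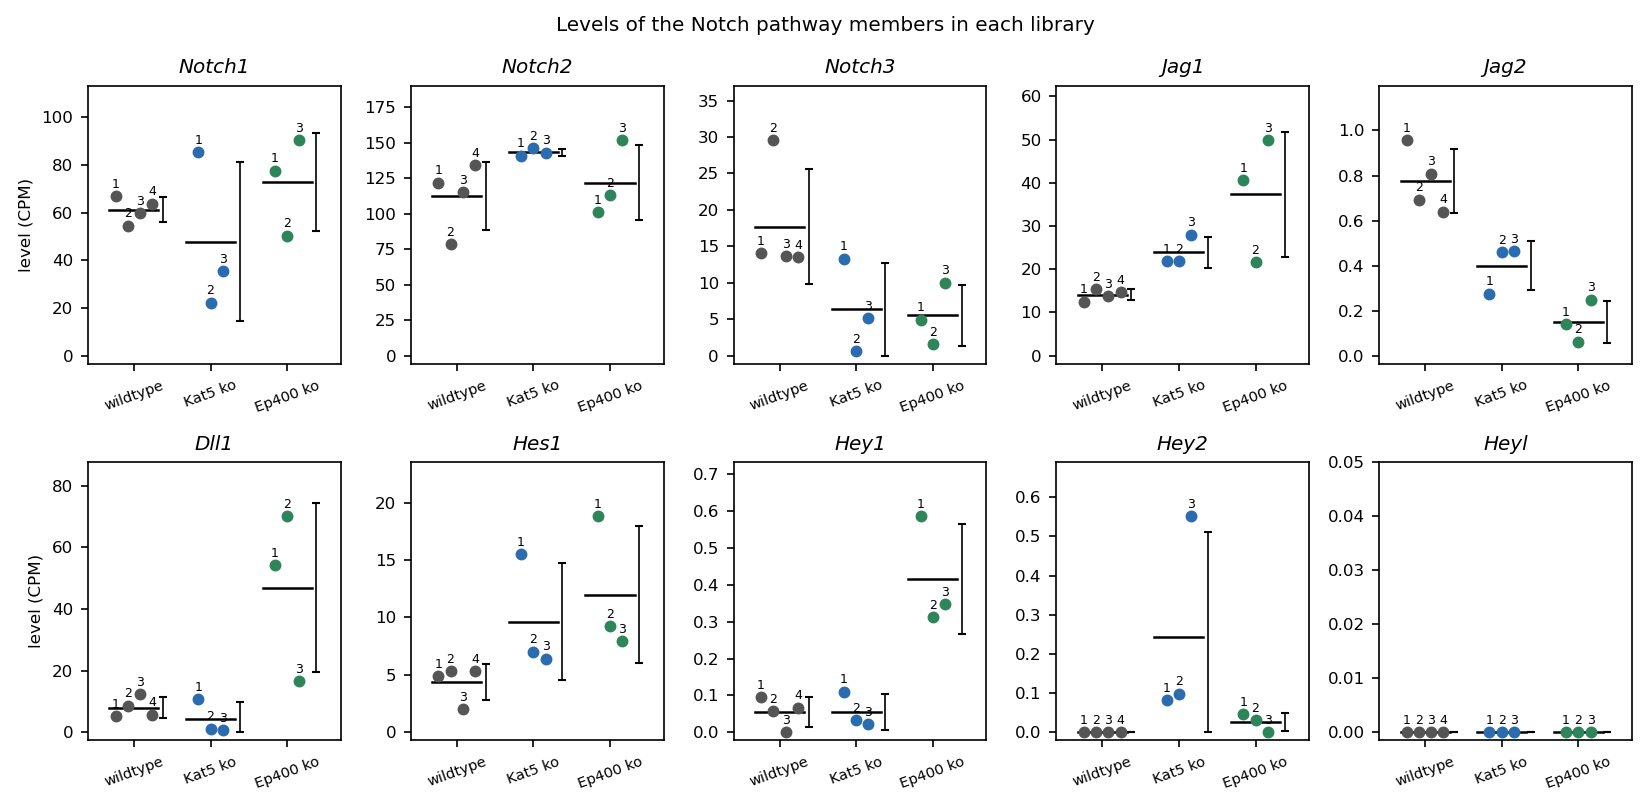
Level of each member in each library in CPM (linear axes that differ between panels), with replicate or clone numbers beside the points, the group mean as a line and the SD as a bar that ends at 0. Jag1 and Dll1 lie above wildtype in all 3 Ep400 ko clones, Jag2 lies below it in all 6 ko clones, and Kat5/1 stands apart from the other Kat5 ko clones for Notch1, Notch3 and Dll1.

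Calls below are genes with an adjusted p of at most 0.05 in the quasi-likelihood test of edgeR after Benjamini-Hochberg adjustment over all genes tested. For DEGs, the log2-fold change also had to reach 1 in either direction, with a mean normalized count above 100 in at least 1 group. In the comparison of Kat5 ko clones with wildtype 7 members passed the filter on low counts and none was called, while 0.625% of all 13434 genes tested were called. Before adjustment 3 were at or below 0.05, as were 22.3% of all genes. DESeq2 called 1 member, Jag1, and 11.1% of all genes. In the comparison of Ep400 ko clones with wildtype 8 members were tested and 4 called, 3 higher and 1 lower, while 13.7% of all 13836 genes were called, 8% higher and 5.72% lower. Jag1 and Dll1 were also DEGs, as were 6.42% of all genes. Before adjustment 6 members and 32.2% of all genes were at or below 0.05, and DESeq2 called 6 members and 22.6% of all genes. Among tested members, groups did not overlap for 5 of 7 with Kat5 ko clones (19.9% of all genes) and for 6 of 8 with Ep400 ko clones (30.2% of all genes). Both comparisons share the wildtype libraries. As the members were chosen with earlier results of these data known, their counts beside the shares over all genes are no independent support. Since Hey1 passed the filter only in comparisons with Ep400 ko clones, in which it was high, and Jag2 through wildtype and Kat5 ko libraries, these counts over tested members do not stand for all 10 genes.

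Of the receptors, none was called by edgeR in either ko against wildtype. Notch1, located on chr2:26457903-26516663 and the founding receptor of the family, was at 66.8, 54.5, 59.8 and 63.8 CPM in wildtype. Its levels were 85.5, 22.3 and 35.5 CPM in Kat5/1 to Kat5/3 and 77.6, 50.3 and 90.5 CPM in Ep400/1 to Ep400/3. Kat5/1 was thus above all wildtype libraries and the other Kat5 ko clones below all of them. The log2-fold change was −0.38 (SE 0.40, 95% interval −1.29 to 0.53, adjusted p 0.605) for Kat5 and 0.25 (SE 0.20, −0.20 to 0.70, adjusted p 0.411) for Ep400.

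Notch2 on chr3:98013527-98150361 was the most abundant receptor in every library. It was at 122, 78.7, 115 and 134 CPM in wildtype, at 141, 146 and 143 CPM in Kat5 ko clones and at 101, 113 and 152 CPM in Ep400 ko clones. Kat5 ko clones lay just above the wildtype range and differed little among themselves, with an SD of 2.51 CPM compared with 24 CPM in wildtype. Neither difference was called, with log2-fold changes of 0.32 (−0.10 to 0.74, adjusted p 0.338) for Kat5 and 0.12 (−0.37 to 0.61, adjusted p 0.741) for Ep400.

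Notch3 on chr17:32120820-32166852 is the receptor known for its function in vascular smooth muscle and pericytes. Wildtype levels were 14.1, 29.6, 13.7 and 13.5 CPM, WT/2 being the high one. Kat5/1 to Kat5/3 had 13.3, 0.659 and 5.18 CPM and Ep400/1 to Ep400/3 had 4.95, 1.62 and 10 CPM. All 6 ko clones were below all 4 wildtype libraries, with Kat5/1 next to the lowest of them. The mean was 35.9% of wildtype in Kat5 ko and 31.1% in Ep400 ko clones, but the clones of a genotype ranged 20.2-fold and 6.16-fold. Log2-fold changes were −1.49 (SE 0.79, −3.30 to 0.31, adjusted p 0.299) and −1.68 (SE 0.57, −2.99 to −0.38, adjusted p 0.0845). Without Kat5/1 the former was −2.62 (adjusted p 0.061), and without Ep400/3 the latter was −2.43 and called (adjusted p 0.0362). With all libraries, Notch3 in Ep400 ko clones was called in 1 of 8 other settings, DESeq2 (adjusted p 0.00955). The adjusted p went up to 0.212 over these settings. The smooth muscle marker Acta2 was at 504, 0.461 and 20.6 CPM in Kat5/1 to Kat5/3, at 47, 2.06 and 58.3 CPM in Ep400/1 to Ep400/3 and at 13.8, 5.58, 5.66 and 15.3 CPM in wildtype. It thus had the same order of clones as Notch3 within each ko group, but was low in WT/2, where Notch3 was highest, and its part in the Notch3 values was not tested.

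Among the ligands, Jag1 and Dll1 rose and Jag2 fell in Ep400 ko clones. Jag1, on chr2:137081456-137116644, had 12.5, 15.4, 13.7 and 14.7 CPM in wildtype. Levels were 21.8, 21.9 and 28.0 CPM in Kat5 ko clones and 40.6, 21.6 and 49.9 CPM in Ep400 ko clones. Every ko clone exceeded every wildtype library, although Ep400/2 was no higher than the Kat5 ko clones. The increase in Ep400 ko clones was 2.65-fold (log2-fold change 1.41, SE 0.26, 0.81 to 2.00, adjusted p 0.0126) and was called in all 7 fits that left out 1 library (adjusted p 0.00407 to 0.0451). For Kat5 the log2-fold change was 0.73 (SE 0.17, 0.35 to 1.11) with an adjusted p of 0.0744.

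Dll1, a Delta-type ligand on chr17:15367354-15376872, was at 5.14, 8.61, 12.4 and 5.65 CPM in wildtype. It had 54.2, 70.0 and 16.5 CPM in Ep400/1 to Ep400/3, all above wildtype and the lowest clone 4.24-fold below the highest. The rise was 5.89-fold (log2-fold change 2.56, SE 0.49, 1.45 to 3.67, adjusted p 0.0138), the greatest of the called members with over 100 normalized counts, and was called in all 7 fits without 1 library (adjusted p 0.0056 to 0.0494). A single fit of all 10 libraries gave the same log2-fold change of 2.56 with an adjusted p of 0.0804. Chromosome 17 genes had a median log2 difference from the wildtype mean of −0.28 in Ep400/2, the clone with the highest Dll1 level, and with chromosome medians as offset the log2-fold change was 2.68 (adjusted p 0.0144).

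In Kat5 ko clones Dll1 was at 10.8, 1.19 and 0.639 CPM. Kat5/1 fell within the wildtype range, and Kat5/2 and Kat5/3 had 14.9% and 8.03% of the wildtype mean. Over all 3 clones the log2-fold change was −0.94 (SE 0.88, −2.96 to 1.08, adjusted p 0.564). Without Kat5/1 it was −3.17 and called (adjusted p 0.00962), as were Notch1 with −1.12 (adjusted p 0.0135) and Jag1 with 0.79 (adjusted p 0.0211). In that fit 19.4% of all genes were called, so that 3 called members came with a change across the whole table. The chromosome 17 median was −0.36 in Kat5/3 and −0.03 in Kat5/2.

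A lincRNA, A930024N18Rik, overlaps Dll1 on the opposite strand. It had 1, 3, 10 and 9 counts in wildtype, 9, 0 and 2 in Kat5 ko clones and 37, 40 and 45 in Ep400 ko clones. Libraries were prepared with a stranded kit, but the strand setting of the counting is not given in the sources used here, so that reads of the pair may not be separated. Dll1 had 664 to 2313 counts in Ep400 ko clones, and whether shared reads have a part in them was not tested.

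Jag2 on chr12:112907819-112929776 was a low-level gene. Its counts were 30, 24, 31 and 29 in wildtype, 10, 14 and 21 in Kat5 ko clones and 6, 2 and 10 in Ep400 ko clones. The corresponding means were 0.775 ± 0.141 (SD, n = 4), 0.400 ± 0.108 (SD, n = 3) and 0.151 ± 0.0935 CPM (SD, n = 3), and neither ko group overlapped wildtype. Jag2 fell 4.97-fold in Ep400 ko clones (log2-fold change −2.31, SE 0.52, −3.50 to −1.12, adjusted p 0.024), but it passed the filter there through wildtype, in which it was high. The call rested on individual libraries, as it was kept in 2 of 7 fits without 1 library and lost without WT/1, WT/2, WT/4, Ep400/1 or Ep400/2 (adjusted p up to 0.0688). For Kat5 the log2-fold change was −0.98 (−1.91 to −0.05, adjusted p 0.203).

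Summed over the 3 ligands, levels per length were 3.51 to 5.41 CPM per kb in wildtype, 4.11 to 6.33 in Kat5 ko and 12.5 to 20.3 in Ep400 ko clones. Jag1 contributed 43.5% to 63.7% of the sum in wildtype and Dll1 33.9% to 54.4%. In Ep400/1 and Ep400/2 the greater part was Dll1, up to 81.7%, whereas in Ep400/3 Jag1 made up 68.4%. Kat5 ko clones held 59% to 95.7% Jag1. The receptor sum changed little by comparison, with 14.8 to 18.6 CPM per kb in wildtype, 15.2 to 20.7 in Kat5 ko and 14.3 to 21.7 in Ep400 ko clones.

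**Figure D2:**
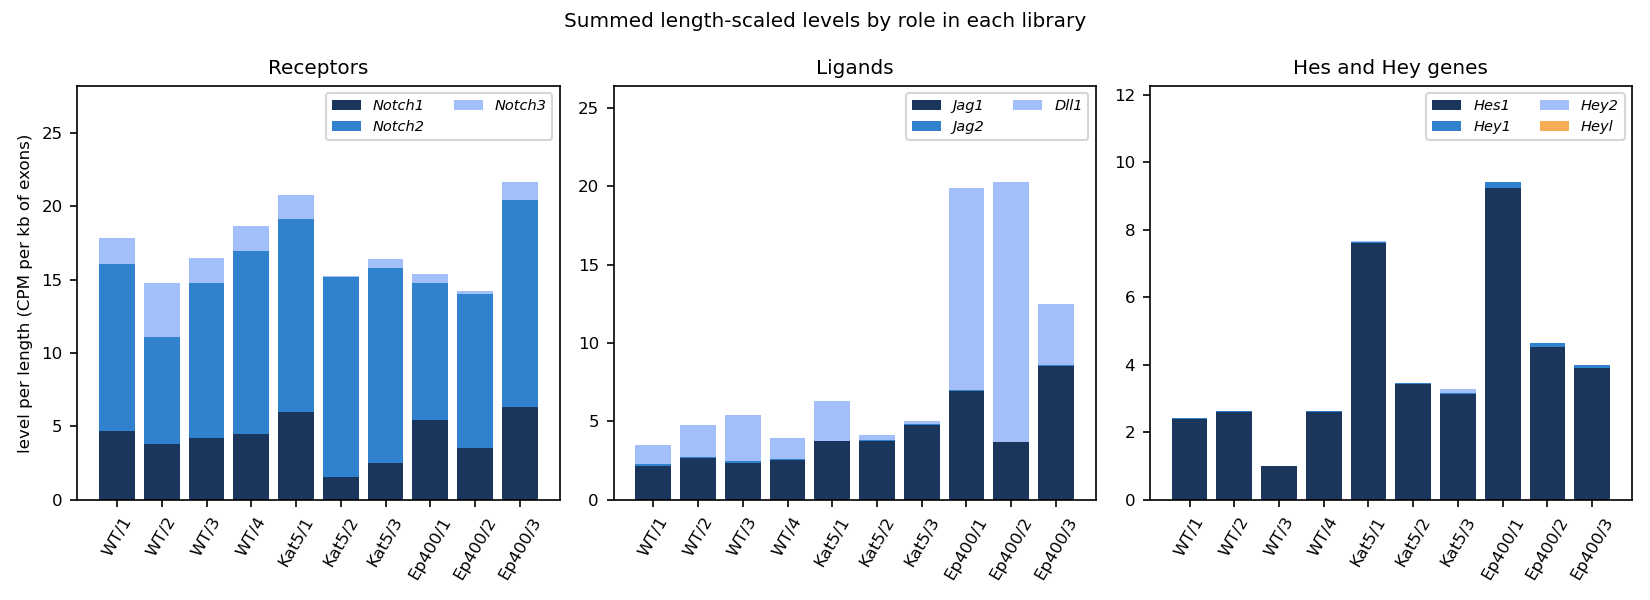
Stacked levels per length (CPM per kb of exons) of receptors, ligands and Hes and Hey genes in each of the 10 libraries. Ligand sums of Ep400 ko clones (12.5 to 20.3) lie above those of all other libraries (3.51 to 6.33), whereas receptor sums overlap between groups and Hes1 accounts for nearly all of the target sum.

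Of the Hes and Hey genes, Hes1 on chr16:30064384-30067796 was the one with substantial counts and contributed at least 96.1% of the summed target level in every library. It was at 4.88, 5.32, 2.03 and 5.32 CPM in wildtype, 15.5, 7.02 and 6.41 CPM in Kat5 ko clones and 18.8, 9.25 and 7.93 CPM in Ep400 ko clones. All ko clones exceeded all wildtype libraries, with the first clone of each genotype highest. The differences did not pass the threshold, at log2-fold changes of 1.11 (SE 0.44, 0.11 to 2.11, adjusted p 0.189) for Kat5 and 1.45 (SE 0.42, 0.49 to 2.41, adjusted p 0.0537) for Ep400. The Ep400 value was called in 3 of 8 other settings, and the adjusted p went up to 0.0954 over these settings. The calls came from DESeq2 (adjusted p 0.00775), no filter on low counts (0.0437) and chromosome medians as offset (0.0416). With 1 library left out it was called in 1 of 7 fits, that without Ep400/3 (0.0475), with an adjusted p of up to 0.143. The low wildtype library WT/3 also had a chromosome 16 median of −0.30 on the log2 scale.

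Hey1 on chr3:8663359-8667256 encodes a repressor that can pair with Hes proteins. Wildtype libraries had 3, 2, 0 and 3 counts, Kat5 ko clones 4, 1 and 1, and Ep400 ko clones 25, 10 and 14. The Ep400 ko clones were thus above all other libraries, at 0.416 ± 0.149 CPM (SD, n = 3) compared with 0.0549 ± 0.0401 CPM (SD, n = 4) in wildtype. The ratio of pooled CPM was 7.97 (95% exact interval 3.75 to 19.5, counting error only) for Ep400 and 1 (0.286 to 3.29) for Kat5. The gene was called in Ep400 ko clones (adjusted p 0.0308) but in only 1 of 7 fits without 1 library, that without WT/3, and the adjusted p was at most 0.0779 in the others. Hey1 passed the filter on low counts only through Ep400 ko clones, in which it was high, so that its test adds no support beyond the counts given.

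Hey2 on chr10:30832359-30842801 had no count in wildtype, 3, 3 and 25 counts in Kat5 ko clones and 2, 1 and 0 in Ep400 ko clones. It was not tested because of its low counts. Set against a floor of 3 counts over the wildtype group, the pooled Kat5 ko level was 13.8-fold higher, and 4.49-fold higher without Kat5/3, which held most counts. The counting error of the Kat5 ko counts themselves is not part of these ratios. Without the filter on low counts the adjusted p for Kat5 was 0.0716. Heyl on chr4:123233556-123249875 had no count in any of the 10 libraries, which allows a level of up to 0.00797 CPM over all of them.

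The direct comparison of both ko groups, which contains no wildtype library, asked whether the members differed between Kat5 ko and Ep400 ko clones. None of 8 tested members was called by edgeR, while 7.05% of all 13587 genes were called. Before adjustment 2 members and 32.4% of all genes were at or below 0.05, and DESeq2 called 1 member, Dll1, and 22.6% of all genes. Dll1 had the greatest difference with 3.45 on the log2 scale higher in Ep400 ko clones (SE 1.10, 0.87 to 6.02, adjusted p 0.0841), and its groups did not overlap. Hey1 was next with 2.84 (SE 0.74, 1.11 to 4.58, adjusted p 0.0574), but here too it passed the filter only through Ep400 ko clones. Without Kat5/1 Dll1 (5.68, adjusted p 0.0193), Hey1 (3.79, adjusted p 0.0337) and Notch1 (1.31, adjusted p 0.0459) were called, when 18% of all genes were. For Jag1 and Jag2 the differences were 0.62 (−0.12 to 1.37, adjusted p 0.214) and −1.39 (−2.86 to 0.09, adjusted p 0.174). Intervals for Notch1 (−0.57 to 1.73), Notch2 (−0.74 to 0.23), Notch3 (−2.59 to 2.11) and Hes1 (−0.86 to 1.44) included 0, and that of Notch3 spans more than a 4-fold difference in either direction.

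**Figure D3:**
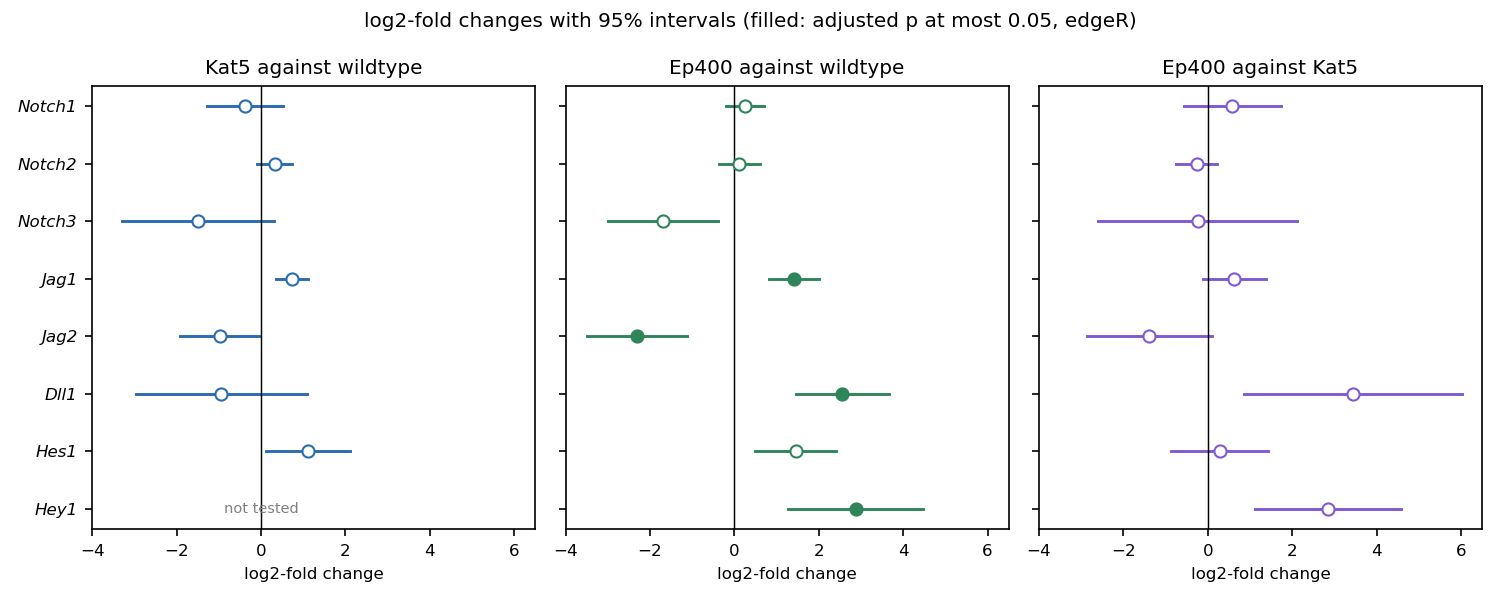
Log2-fold changes of the tested members with 95% intervals in the 3 comparisons, filled where the adjusted p was at most 0.05. Jag1, Dll1 and Hey1 lie to the right and Jag2 to the left in Ep400 ko clones against wildtype (1.41, 2.56, 2.88 and −2.31), and no symbol is filled in the other comparisons. Hey1 passed the filter on low counts only through Ep400 ko clones, and Jag2 through wildtype and Kat5 ko libraries.

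The rest of the pathway was followed in 7 lists with 75 genes, also chosen with earlier results of these data known. In Kat5 ko clones none of 66 tested genes was called by edgeR, beside 0.625% of all genes, and 12 by DESeq2, beside 11.1% of all genes. Before adjustment 17 of them and 22.3% of all genes were at or below 0.05. In Ep400 ko clones 5 of 66 were called, 4 higher and 1 lower, a share of 7.58% compared with 13.7% of all genes. DESeq2 called 18 of them and 22.6% of all genes. Median log2-fold changes over tested list genes were −0.01 for Kat5 and 0 for Ep400, beside 3.2e-05 and 0.043 over all genes.

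Of the genes for receptor cleavage, 1 of 10 was called in Ep400 ko clones, beside 13.7% of all genes. Psen2, a catalytic subunit of the γ-secretase, rose 2.56-fold (SE of the log2-fold change 0.23, adjusted p 0.00932). Its levels were 11, 9.94, 11.2 and 9.83 CPM in wildtype and 18.8, 25.1 and 36.7 CPM in Ep400 ko clones, and 14, 7.02 and 7.23 CPM in Kat5 ko clones. The γ-secretase subunit gene Ncstn and the protease gene Adam10 had log2-fold changes of 0.16 and 0.43 in Ep400 ko clones (adjusted p 0.459 and 0.124).

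None of 9 tested genes of the nuclear complex was called by edgeR, beside 0.625% of all genes for Kat5 and 13.7% for Ep400. Before adjustment 1 in Kat5 ko and 2 in Ep400 ko clones were at or below 0.05, beside 22.3% and 32.2% of all genes. Rbpj was abundant and ranged from 333 to 391 CPM in wildtype, 351 to 383 CPM in Kat5 ko and 484 to 567 CPM in Ep400 ko clones. All Ep400 ko clones were above the other libraries, and the log2-fold change of 0.48 (SE 0.14) had an adjusted p of 0.0509. Rbpj was called when the prior of the fit was not estimated robustly (0.0493) and with library size alone (0.0405). It also passed in 1 fit of all libraries (0.0486) and by DESeq2 (0.00645). No call was made with RLE normalization, without the filter on low counts, with chromosome medians as offset or with the replicate block (0.0597, 0.127, 0.0779 and 0.165). With 1 library left out it was called in 1 of 7 fits, that without Ep400/3 (0.0472), with an adjusted p of up to 0.164. The coactivator gene Maml1 was at 65.3 to 87 CPM in wildtype and 45.3 to 61.5 CPM in Ep400 ko clones (log2-fold change −0.49, adjusted p 0.0733). Of 13 corepressor genes 1 was called in Ep400 ko clones, beside 13.7% of all genes. This was Tle4, a Groucho-type partner of Hes proteins, which rose 2.55-fold (log2-fold change 1.35, SE 0.22, adjusted p 0.0085). Psen2 and Tle4 were called in all 7 fits without 1 library, but in 1 fit of all libraries Psen2 was called (adjusted p 0.0203) and Tle4 was not (adjusted p 0.0829).

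The non-canonical ligand gene Dlk1 had 29, 14, 9 and 38 counts in wildtype and 1, 2 and 0 in Ep400 ko clones and was the list gene that fell (adjusted p 0.0179). It passed the filter on low counts through wildtype, in which it was high, was tested in 4 of 7 fits without 1 library and was not called in 1 fit of all libraries (adjusted p 0.0559). Kat5 ko clones had 0, 14 and 4 counts. Notch4 was tested but not called (13 to 38, 6 to 23 and 17 to 23 counts in wildtype, Kat5 ko and Ep400 ko). Dll3 and Dll4 had at most 4 and 6 counts in any library, and Hes5 had none. No gene of the glycosyltransferase list and none of the list of ubiquitin ligases and trafficking genes was called in either ko against wildtype, with 8 and 13 tested. Over all genes 0.625% were called for Kat5 and 13.7% for Ep400. Before adjustment 2 and 2 of the list genes were at or below 0.05 for Kat5, beside 22.3% of all genes. For Ep400 these were 1 and 5, beside 32.2% of all genes.

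Of 8 tested genes in the list of other Hes genes and targets, Snai2 and Pdgfrb were called in Ep400 ko clones, beside 13.7% of all genes. In Kat5 ko clones none was called, beside 0.625% of all genes. Before adjustment 6 of 8 for Kat5 and 3 of 8 for Ep400 were at or below 0.05, beside 22.3% and 32.2% of all genes. For Kat5, 4 of 8 had log2-fold changes above 0. Snai2, a zinc finger repressor of the neural crest, was at 19.5 to 34.7 CPM in wildtype and 41.7 to 62.9 CPM in Ep400 ko clones (1.81-fold, adjusted p 0.0451). Pdgfrb, a receptor of mesenchymal and mural cells, was at 72.9 to 162 CPM and 237 to 286 CPM (1.93-fold, adjusted p 0.0497). Each was called in 1 of 7 fits without 1 library, Snai2 in that without Ep400/1 and Pdgfrb in that without WT/2. The Pdgfrb call was also lost with RLE normalization, with chromosome medians as offset and in 1 fit of all libraries (adjusted p 0.0526, 0.0567 and 0.0573). Nrarp, a feedback inhibitor and Notch target, had 10.1, 4.93 and 2.51 CPM in Ep400 ko clones and 1.21 to 3.29 CPM in wildtype (log2-fold change 1.46, SE 0.54, adjusted p 0.102).

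Between both ko groups 5 of 65 list genes were called, or 7.69% compared with 7.05% of all genes. Hes6, an atypical Hes gene that counteracts Hes1, was 2.39-fold higher in Ep400 ko clones (adjusted p 0.0333), Snai2 2.1-fold (adjusted p 0.0409), Pdgfrb 3.42-fold (adjusted p 0.0252) and the ubiquitin ligase gene Neurl1b 5.06-fold (adjusted p 0.0425), whereas Dtx4 was 2.69-fold lower (adjusted p 0.0453). With 1 clone left out, Hes6, Snai2, Neurl1b and Dtx4 were called in 1 of 6 fits, that without Kat5/1, and Pdgfrb in 2, those without Kat5/1 or Ep400/1.

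**Figure D4:**
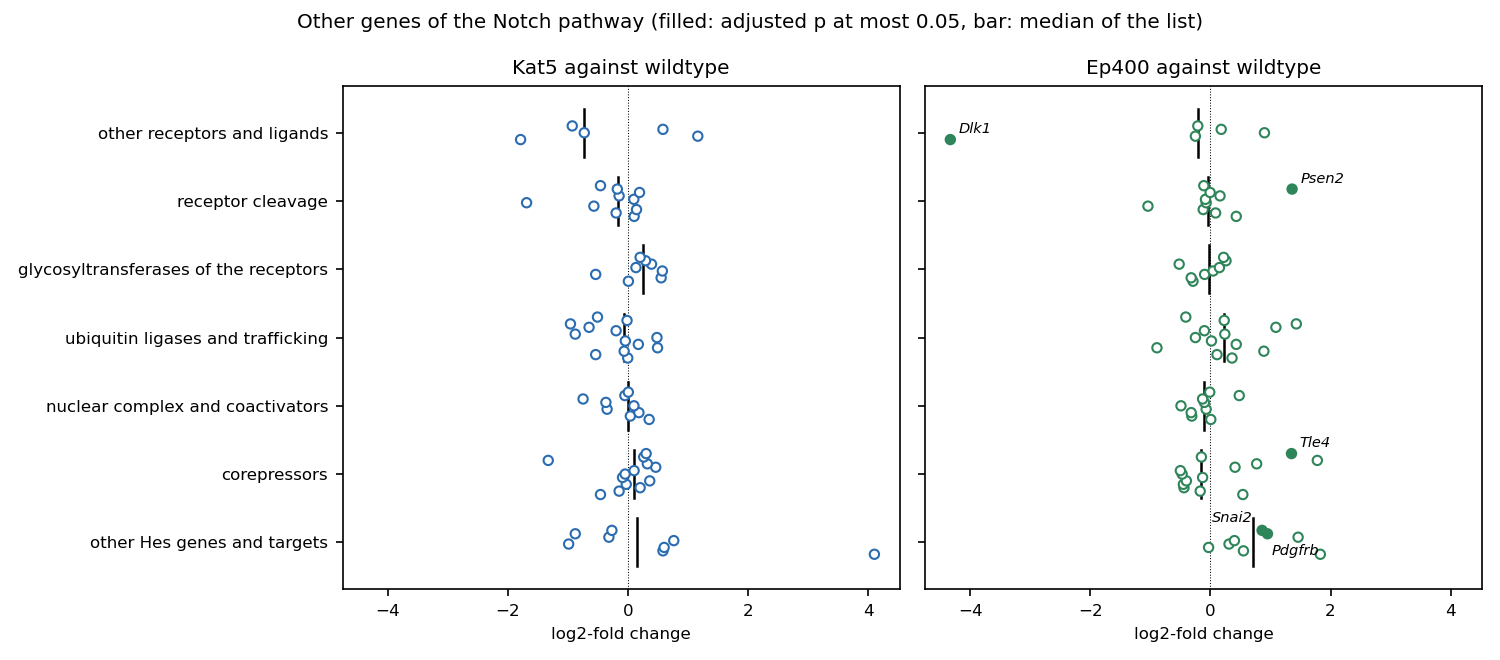
Log2-fold change of each tested gene of the 7 pathway lists in Kat5 ko and Ep400 ko clones against wildtype, filled and named where the adjusted p was at most 0.05, with the list median as a bar. No gene is filled for Kat5, and for Ep400 Psen2, Tle4, Snai2 and Pdgfrb lie to the right and Dlk1 to the left.

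For 6 members tested in both comparisons with wildtype, the genes most like it were taken as those with the smallest root mean square difference between log2 levels, each centered on its mean over the 10 libraries. For Jag1 these were Slc18b1, Cyb5rl and Tlr3, with differences of 0.19, 0.22 and 0.30 compared with a median of 0.75 over all other genes. For Dll1 they were Podxl2, Fam19a2 and Ckb (0.75, 0.76 and 0.81, median 2.03) and for Notch3 Iglon5, Ddah2 and Loxl2 (0.61, 0.67 and 0.67, median 1.62), so that the nearest genes followed these more variable members less closely in absolute terms. Fstl1, Rassf5 and Pcdh9 were nearest to Hes1 (0.34, 0.44 and 0.45, median 0.94), and Paox, Aldh18a1 and Zhx2 to Jag2 (0.39, 0.39 and 0.40, median 1.01). The genes nearest to Notch1 were Cyb5a, Gxylt2 and Exoc4 (0.22, 0.23 and 0.23, median 0.71). Gxylt2, which encodes a xylosyltransferase that acts on Notch receptors, was the only one of these 18 that also belongs to the pathway lists. The nearest genes were picked for the smallest differences, so that lying below the median follows from this choice. The SD of the member itself over the 10 libraries was 0.63 for Jag1, 1.99 for Dll1 and 1.55 for Notch3. It was 0.85 for Hes1, 0.95 for Jag2 and 0.58 for Notch1. These likenesses share the libraries and describe them only.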

How the data were processed

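RNA was extracted from O9-1 cells, and poly-A libraries were made with a stranded kit and sequenced on an Illumina NovaSeq instrument. The deposited table holds raw counts, which are whole numbers of reads assigned by the authors to each gene after mapping to mm10. The submitters' processing notes name bcl2fastq 2.20, STAR 2.7.3, DESeq2 1.36.0 and R 4.2.1. The counting program, its strand setting and the annotation are not given in the sources used here. Tables with normalized values of the same libraries were not used.

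Samples were grouped by their labels. The members and gene lists were chosen with earlier results of these data known. Raw counts were filtered with filterByExpr (minimum count 10), scaled with TMM within each comparison and tested with the quasi-likelihood test of edgeR 4.0.16 in R 4.3.3, with Benjamini-Hochberg adjustment over all genes tested. Robust estimation of the prior was not fixed beforehand. Fits without it were run first and their results on the members seen. 8 combinations of settings were then tried, and the robust prior was adopted because its counts of called genes matched those of an earlier analysis of the same files. The fit without it is therefore an alternative chosen after seeing the data. It called 67 rather than 84 genes for Kat5 and 1917 rather than 1899 for Ep400, and no call of a member differed.

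CPM were computed on 1 TMM scale over all libraries, and CPM per kb used merged exons of GENCODE M21 (GRCm38), to which 98% of genes matched by Ensembl ID. Standard errors are the log2-fold change divided by the root of the F statistic, and intervals use the t quantile of the fit. Count ratios carry exact binomial intervals at a level of 95%. Intervals and floors of 3 counts cover counting error only. All 10 members, the pathway list genes called in any comparison, a fixed set of core pathway genes and the 3 genes nearest to each member are named, except for a few results that are not reported here. The alternatives were DESeq2 1.42.0, other scalings, no filter, 1 fit of all libraries, the replicate block, chromosome medians as offset and leaving out each library. In simulated data with 200 changed genes at a log2 change of 2, 137 were recovered with 12 false calls for Kat5 against wildtype, 135 with 5 for Ep400 against wildtype and 119 with 9 for Ep400 against Kat5. With no gene changed, 0, 0 and 1 false calls were made. The simulated counts were drawn independently for each gene from the fitted spread, without differences shared by many genes of a library. They therefore do not give the rate of false calls for these clones. Libraries of 1 group were compared pairwise, and each pair differed beyond counting noise, with chi-square values of 26.8 to 259 for each degree of freedom. The labels call the wildtype libraries biological replicates without giving their cultures, so that p-values measure the spread between these libraries.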

Additional observations from a re-analysis of the deposited data

Results flagged for a closer look

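Among the 8 members with counts that varied between the 4 wildtype libraries, 1 library stood far from the others for 2 genes by Dixon's criterion, which chance meets in about 1 in 20 groups. For Notch3 it was WT/2 with 29.6 CPM next to 13.5 to 14.1 CPM, and for Hes1 it was WT/3 with 2.03 CPM next to 4.88 to 5.32 CPM.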

How the results depend on the processing

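With DESeq2, 1489, 3131 and 3067 genes were called for Kat5 and Ep400 ko clones against wildtype and for Ep400 against Kat5, with 507 DEGs in the first and 1844 in the last. List genes called were 12, 18 and 19, beside 11.1%, 22.6% and 22.6% of all genes, and 1 member was called in the first and 1 in the last. Values then past the threshold were 0.75 for Jag1 (Kat5 against wildtype), −1.71 for Notch3 and 1.43 for Hes1 (Ep400 against wildtype) and 3.47 for Dll1 (Ep400 against Kat5). Without the filter on low counts 286 genes (1.3% of all) and 178 DEGs were found for Kat5. For Ep400 against Kat5 1445 genes (6.47% of all) and 8 list genes were found. Hes1 then passed for Ep400 against wildtype with 1.41. It also passed with chromosome medians as offset, with 1.45. Scaling by library size alone called 8 list genes for Ep400 against wildtype, beside 14.2% of all genes.

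In 1 fit of all libraries, 27 genes (0.192% of all) and 23 DEGs were called for Kat5. For Ep400 against wildtype 3 list genes were called, Psen2, Snai2 and Rbpj, beside 9.03% of all genes. Dll1 was not called there (2.56). For Ep400 against Kat5 3555 genes, or 25.3% of all, and 1775 DEGs were called. With them came 21 list genes and 2 members, Dll1 (3.48) and Hey1 (2.87). The cause of these differences was not tested.

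Same-numbered libraries had correlations of their deviations of −0.0957 to 0.223. Libraries with different numbers were not compared in this way, so that whether the former share more than a number was not tested. With the replicate block 0, 166 and 213 genes were called in the 3 comparisons, or 0%, 1.2% and 1.57% of all genes. DEGs were 0, 158 and 200 and list genes 0, 0 and 1 (Pdgfrb), and 0 members were called for Ep400 against wildtype. Under this block Jag1 had 1.35, Jag2 −2.51, Dll1 2.33 and Hey1 3.1 (adjusted p 0.0954 to 0.124), and Notch3 turned to 0.26 for Ep400 against Kat5.

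Leaving out each library in turn, genes called ranged from 1 to 2654 for Kat5, 804 to 2020 for Ep400 and 3 to 2537 for Ep400 against Kat5, DEGs from 1 to 885, 533 to 1021 and 3 to 1753, members from 0 to 3, 2 to 5 and 0 to 3, and list genes from 0 to 14, 2 to 8 and 0 to 16. The highest counts for Kat5 and for Ep400 against Kat5 were those without Kat5/1. For Kat5, log2-fold changes ranged from −1.12 to −0.04 (Notch1), 0.61 to 0.8 (Jag1) and −3.17 to −0.42 (Dll1). For Ep400 they ranged from −0.08 to 0.24 (Notch2), −2.43 to −1.27 (Notch3), −2.86 to −2 (Jag2), 0.96 to 1.67 (Hes1) and 2.46 to 3.22 (Hey1). For Ep400 against Kat5 they ranged from 0.23 to 1.31 (Notch1), −0.98 to 0.89 (Notch3), 2.96 to 5.68 (Dll1), −0.2 to 0.82 (Hes1) and 2.44 to 3.79 (Hey1). Signs turned for Notch2 in Ep400 without WT/2 (−0.02) or Ep400/3 (−0.08), and between both ko groups for Notch3 without Kat5/1 (0.89) or Ep400/2 (0.19) and for Hes1 without Ep400/1 (−0.2), none of them called. Other settings kept direction and call for the members. Low counts limit Jag2, Hey1 and Hey2.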
